A study of Bos taurus with 8 samples.

Results

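The genes described here are 10 integrin subunits of cartilage cells, chosen by name: the α subunits *ITGA1*, *ITGA2*, *ITGA5*, *ITGA6*, *ITGA10*, *ITGA11* and *ITGAV* and the β subunits *ITGB1*, *ITGB3* and *ITGB5*. Each of the 10 names matched 1 row of the 24596 genes in the count table, and all 10 passed the filter on low counts that left 12857 genes for testing. The table holds RNA-Seq of wild type bovine chondrocytes from knee joints of calves aged between 1 and 2 weeks, with 2 libraries of superficial zone chondrocytes (SZCs) and 2 of deep zone chondrocytes (DZCs). Cells freed from the tissue were grown for 3 days in DMEM/F12 with 10% fetal bovine serum before RNA was taken, so the values describe cells on culture plastic rather than cells in their matrix. No other treatment or genotype separates the groups. The methods call the libraries biological duplicates. Slices were pooled by joint, with the deep slice cut from the core that gave the superficial one, and the sources used here do not say whether libraries of the same number came from the same animal.

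Integrins are receptors of the cell surface made of 1 α and 1 β chain, which bind matrix proteins outside the cell and couple them to actin inside it. The α chain largely sets the ligand. In chondrocytes the collagen-binding α chains pair with the β chain of *ITGB1*, as do the fibronectin receptor chain of *ITGA5* and the laminin receptor chain of *ITGA6*, while the αV chain pairs with several β chains, among them those of *ITGB3* and *ITGB5*. Collagen II of cartilage is bound mainly through the product of *ITGA10*, and fibrillar collagen of other connective tissues through that of *ITGA11*.

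The libraries held between 19918970 and 21890549 counts, of which the 10 genes together took between 0.0733% and 0.180%. Levels are given as CPM, counts relative to library size, after scaling by trimmed mean of *M* values (TMM), and a floor of 3 counts per library corresponds to between 0.129 and 0.187 CPM. CPM is not divided by transcript length, so no gene is ranked above another by its level. Zone differences are log2 fold changes of SZCs over DZCs, tested by edgeR's exact test across all genes with Benjamini–Hochberg adjustment (FDR, threshold 0.05). Their 95% intervals come from the standard error (SE) of the model. *PRG4*, which encodes lubricin and marks the superficial zone, was at 3166 and 2024 CPM in SZCs and 15.3 and 61.5 CPM in DZCs, so the libraries were in the order their labels give. All 10 chondrocyte markers were tested, and none was near 0: the cartilage regulator *SOX9* lay between 55.0 and 142 CPM. Replicates were further apart in DZCs. The median absolute log2 difference between replicates over all genes tested was 0.57 in DZCs and 0.24 in SZCs.

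Of the 10 integrin genes, 1 passed the test, *ITGA2*, which was higher in SZCs. Over all genes 2.93% were called, 2.23% higher in SZCs and 0.7% higher in DZCs, so 1 of 10 is too small a count to set apart from that background. By log2 fold change 4 of the 10 were above 0 and 6 below, with a median of -0.06, against -0.04 over all genes tested. With libraries scaled by totals in place of TMM, which moved the median of all genes by 0.30, *ITGAV*, *ITGB1* and *ITGB5* turned, leaving 7 above 0 and 3 below, and 86.7% of all calls were higher in SZCs in place of 76.1%. In 3 genes, the collagen-binding chains *ITGA2*, *ITGA10* and *ITGA11*, both SZC libraries lay above both DZC libraries, and *ITGA6* showed the opposite order. The other 6 overlapped. Of all genes tested, 21% had both SZC libraries above both DZC libraries and 20.5% the reverse. With the quasi-likelihood test of edgeR in place of the exact test, 0 of the 10 and 0 of all genes passed, with 3 of the 10 at an unadjusted p-value below 0.05. In the exact test 3 of the 10 also had an unadjusted p-value below 0.05, against 9.09% of all genes. DESeq2 (3.09% of all genes called), its size factors in edgeR (2.93%), no filter (2.06%) and a filter at 1 CPM (3.04%) each called *ITGA2* alone among the 10. Scaling by library totals (2.58%) and the replicate number as a block (2.7%) each called *ITGA10* alone.

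**Figure D1:**
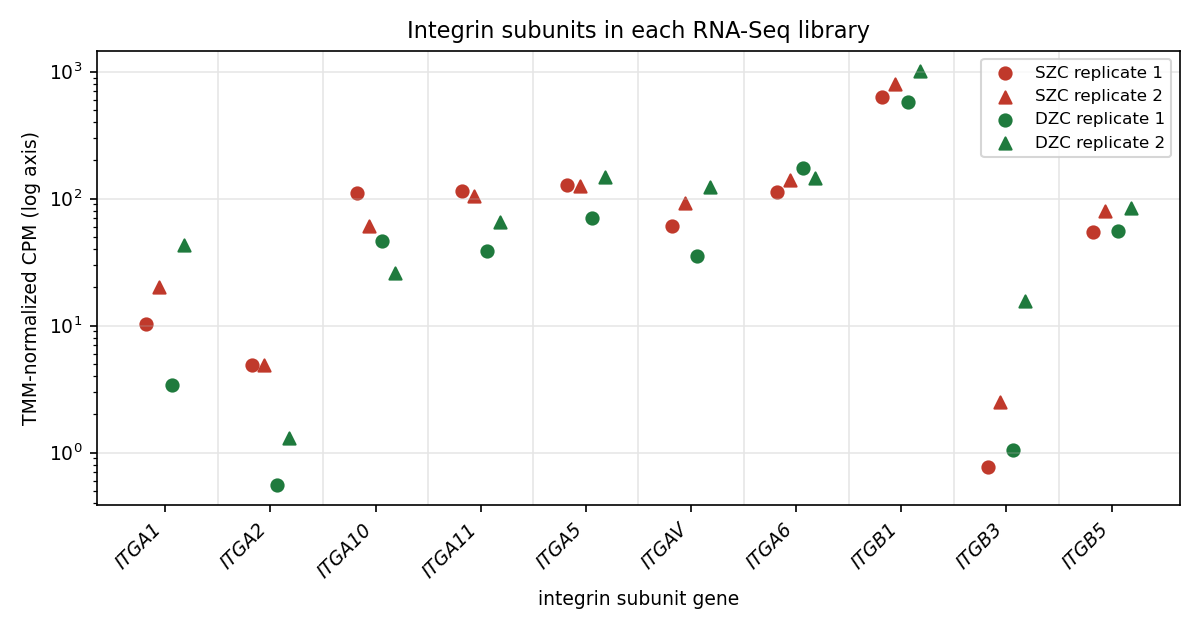
TMM-normalized CPM of the 10 integrin genes (log axis) in each of the 4 libraries, with SZCs in red, DZCs in green, replicate 1 as circles and replicate 2 as triangles. *ITGA2*, *ITGA10* and *ITGA11* have both SZC points above both DZC points, and *ITGA1* and *ITGB3* have DZC replicate 2 far above DZC replicate 1. CPM is not divided by length, so heights may be compared within a gene only.

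Among the collagen receptors, *ITGA2* encodes a chain known as the platelet and epithelial collagen receptor. Its counts were 108 and 113 for SZCs but 9 and 29 for DZCs, or 4.91 and 4.87 CPM against 0.560 and 1.30 CPM. The SZC libraries were nearly equal and both lay above either DZC library. This 5.15-fold difference, 2.37 on the log2 scale (SE 0.67, 95% interval 1.05 to 3.68), had an FDR of 0.0291 by edgeR's exact test. By FDR it ranked 336 of the 377 genes called. Scaling by library totals, without TMM, ended the call (FDR 0.100 in edgeR's exact test), although the log2 fold change was then 2.59. So did the quasi-likelihood test without (FDR 0.299) and with the replicate block (FDR 0.0584, edgeR), and leaving out either SZC library. With each library left out in turn the log2 fold change ran from 1.91 to 3.13, the highest being without DZC replicate 2. On the RefSeq assembly ARS-UCD2.0, which is not the build the reads were aligned to, *ITGA2* overlaps *MOCS2*, a gene of molybdenum cofactor synthesis. Because counting ignored strand, reads in such an overlap cannot be told apart. *MOCS2* itself had a log2 fold change of -0.01 (95% interval -0.66 to 0.63).

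*ITGA10* was at 110.4 and 60.8 CPM in SZCs and 46.7 and 25.8 CPM in DZCs. In both zones replicate 1 was the higher library, by nearly the same factor (replicate 2 over replicate 1, 0.551 in SZCs and 0.553 in DZCs). SZCs were higher by 1.24 on the log2 scale (SE 0.48, 95% interval 0.29 to 2.19), at an FDR of 0.22 by edgeR's exact test. It therefore did not pass, but with libraries scaled by their totals it had a log2 fold change of 1.62 and did (FDR 0.0231 by edgeR's exact test), as it did with the replicate number as a block (FDR 0.0490, edgeR's quasi-likelihood test).

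*ITGA11* was at 115 and 106 CPM in SZCs and at 38.6 and 65.2 CPM in DZCs. The lowest SZC value exceeded the highest DZC value. On the log2 scale the difference was 1.09 (SE 0.40, 95% interval 0.30 to 1.87, FDR 0.157 by edgeR's exact test). Within each library the log2 ratio of *ITGA10* to *ITGA11* counts does not depend on scaling. It was -0.05 and -0.80 in SZCs and 0.28 and -1.34 in DZCs, so the DZC values spanned those of the SZCs and the balance of these receptors did not separate the zones.

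*ITGA1*, the remaining collagen-binding chain, was at 10.3 and 20.2 CPM in SZCs and at 3.42 and 42.8 CPM in DZCs. Its lowest and its highest library were both DZC libraries, 12.5-fold apart. The log2 fold change of -0.60 had a 95% interval from -2.61 to 1.41 (FDR 1 by edgeR's exact test), which spans more than 2-fold in either direction. *PELO*, which lies within *ITGA1* on ARS-UCD2.0, was even between DZC libraries by comparison, at 58.5 and 49.0 CPM. The log2 ratio of *ITGA2* to *ITGA1*, which are neighbours on that assembly, was -1.06 and -2.05 in SZCs and -2.55 and -5.02 in DZCs. The SZC ratios were the higher, by 2.23 on average, with p = 0.333 in an exact two-sided permutation test, the smallest p that 2 libraries against 2 allow. After adjustment over the 7 ratios compared, that p was 1.

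Of the chains that recognize the RGD motif of fibronectin, vitronectin and related proteins, neither passed. *ITGA5* was at 128 and 127 CPM in SZCs and at 70.2 and 149 CPM in DZCs. The SZC values lay between the DZC values, and the log2 fold change was 0.21 (95% interval -0.69 to 1.12, FDR 1 by edgeR's exact test). *ITGAV* was at 60.4 and 93.2 CPM in SZCs and 35.2 and 124 CPM in DZCs, a log2 fold change of -0.06 (95% interval -1.30 to 1.19). Again the SZC values fell inside the DZC range. The log2 ratio of *ITGA5* to *ITGAV* was higher in replicate 1 of both zones, at 1.08 against 0.44 in SZCs and 0.99 against 0.27 in DZCs, and its zone means of 0.76 and 0.63 differed by less than that spread.

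*ITGA6*, the laminin receptor chain, was the most even of the 10 between DZC replicates. It was at 113 and 140.1 CPM in SZCs and at 173 and 146 CPM in DZCs. Its zone difference was -0.34 in log2 (95% interval -1.04 to 0.37, FDR 0.976 by edgeR's exact test), in size close to the 0.31 between the SZC replicates.

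*ITGB1*, whose product pairs with every α chain named above, was at 627 and 795 CPM in SZCs and at 573 and 1005 CPM in DZCs. Its log2 fold change was -0.15 (95% interval -1.02 to 0.72). *ITGB5* was at 54.7 and 79.5 CPM in SZCs and at 55.8 and 85.0 CPM in DZCs, a log2 fold change of -0.07 (95% interval -0.86 to 0.72). The profiles of these β chains over the 4 libraries were the closest of any pair among the 10, with a root mean square distance of 0.10 in log2 CPM once each gene was centred on its mean. *ITGB1*, *ITGB5*, *ITGA6*, *ITGA5*, *ITGAV* and *ITGA1* had intervals that included 0, and a difference of the size seen was not detectable with 2 libraries per zone.

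The log2 ratio of *ITGA5* to *ITGB1*, the chains of the fibronectin receptor, was -2.29 and -2.65 in SZCs and -3.03 and -2.75 in DZCs. The SZC ratios were both above the DZC ratios, by 0.42 on average, at the same smallest p of 0.333 (exact two-sided permutation test). Of the 7 ratios fixed for comparison, these and *ITGA2* to *ITGA1* were the 2 whose zones did not overlap.

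*ITGB3*, the β chain of the vitronectin receptor of osteoclasts and platelets, had 17 and 58 SZC counts and 17 and 346 DZC counts. That is 0.772 and 2.5 CPM against 1.06 and 15.5 CPM. DZC replicate 2 stood apart from the other 3 libraries. The log2 fold change of *ITGB3*, -2.34 with an SE of 1.18 and a 95% interval from -4.65 to -0.02, was the lowest of the 10 (FDR 0.649 by edgeR's exact test). Although the interval from the SE lay just below 0, the unadjusted p-value of that exact test was 0.0709. The log2 ratio of *ITGB3* to *ITGB5* was -2.45 in DZC replicate 2 and between -6.10 and -4.98 in the other libraries. Of 5 megakaryocyte and platelet markers listed, 3 were in the table and only *ITGA2B* was high enough to test. *ITGA2B*, the partner of *ITGB3* in platelets, was at 1.87 and 1.17 CPM in DZC replicates 1 and 2, *GP1BA* had 0 and 1 counts there, and *GP9* had 0 counts in all libraries. Their part in the result was not tested.

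**Figure D2:**
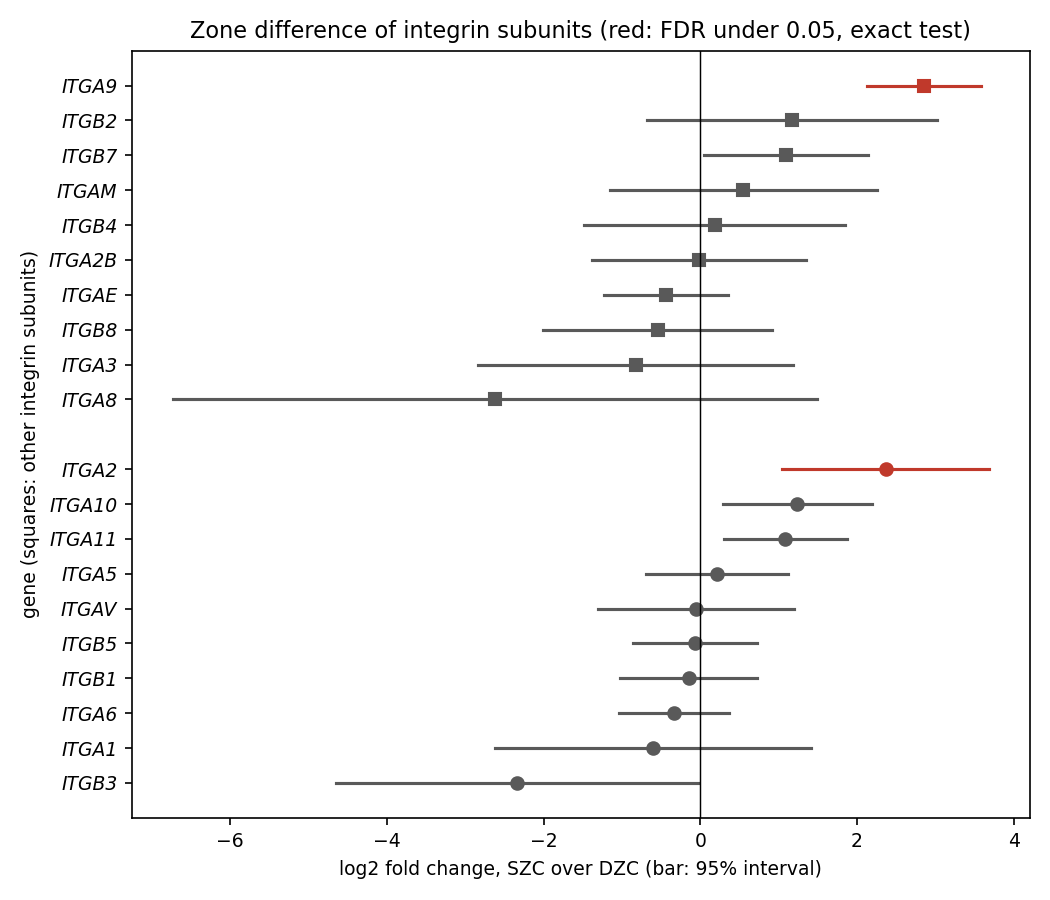
Log2 fold change of SZCs over DZCs (x axis) with 95% intervals (bars) for the 10 integrin genes (circles) and 10 other tested integrin subunits (squares), red where the FDR of edgeR's exact test was under 0.05. *ITGA2* and *ITGA9* are the only red points. The intervals of *ITGA10*, *ITGA11* and *ITGB7* lie above 0, and that of *ITGB3* below 0, without passing the FDR threshold. For *ITGB3* the exact test gave an unadjusted p-value of 0.0709.

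The spread between DZC replicates was itself uneven across the family. In DZC replicate 2, 8 of the 10 genes were higher than in DZC replicate 1, against 50.9% of all genes tested. The difference was largest for *ITGB3* (14.7-fold), *ITGA1* (12.5-fold) and *ITGAV* (3.53-fold), the 3 genes above the 90th percentile of all genes, which was a log2 difference of 1.73. *ITGA10* and *ITGA6* went the other way. Between the SZC replicates 6 of the 10 were higher in replicate 2, against 50.0% of all genes, with *ITGB3* 3.24-fold, *ITGA1* 1.97-fold and *ITGAV* 1.54-fold higher. Outside the 10, 5 of the 10 other integrin subunits tested were higher in DZC replicate 2 than in DZC replicate 1. Among them *ITGA3*, the chain of another laminin receptor, was at 2.43 and 28.4 CPM in DZCs, and *ITGB8*, a partner of αV, at 3.98 and 14.8 CPM.

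Other genes moved between the DZC replicates as well. The summed level of the 10 chondrocyte markers was 536167 CPM in DZC replicate 1 and 207526 CPM in DZC replicate 2, against 136801 and 137482 CPM in SZCs. *COL2A1* alone gave 333205 and 118929 CPM of it in DZCs. Of the 10, only *MATN3* was higher in DZC replicate 2 (186 and 334 CPM). All 10 had zone log2 fold changes below 0, with a median of -1.11. By edgeR's exact test *CNMD* (-2.94, FDR 0.000917) and *MATN3* (-2.04, FDR 0.00212) were called higher in DZCs. The summed level of 8 pericyte and smooth muscle markers was 67.6 and 367 CPM in the DZC libraries and 58.5 and 171 CPM in the SZC libraries. Of this the smooth muscle actin gene *ACTA2* gave 53.2 and 311 CPM in DZCs and 11.5 and 93.2 CPM in SZCs. Between the zones 6 of these 8 markers had log2 fold changes above 0, among them *PDGFRB* (1.42) and *NOTCH3* (1.58), with 0 called by edgeR's exact test and 2 at an unadjusted p-value below 0.05. All 8 were higher in replicate 2 of each zone. The summed level of 10 osteoblast and hypertrophic markers was 23.8 and 90.7 CPM in DZCs and 6.50 and 11.1 CPM in SZCs. In DZC replicates 1 and 2, *MMP13* had 0 and 468 counts, *ALPL* 1 and 445 and *COL10A1* 0 and 221, but *IHH* 194 and 48. Of the 5 tested, 3 were higher in DZC replicate 2 and the others lower. Their median log2 fold change was -2.44, with 4 below 0 and 3 at an unadjusted p-value below 0.05. By edgeR's exact test 1 was called, *IHH*, higher in DZCs (-4.12, FDR 0.0160). Leukocyte markers summed to 13.1 and 26.0 CPM in DZCs and 32.3 and 45.5 CPM in SZCs, with *PTPRC*, which defines leukocytes, at 0 and 9 counts in DZCs and 6 and 14 in SZCs. The 6 leukocyte markers tested had log2 fold changes above 0, with a median of 1.08, 0 called by edgeR's exact test and 1 at an unadjusted p-value below 0.05. Endothelial markers summed to at most 13.0 CPM in any library, and *CDH5*, which defines them, never exceeded 10 counts. The part of these cell types and of the fall in cartilage genes in the integrin differences was not tested. In bulk RNA, fewer cells of a kind and less RNA per cell cannot be told apart.

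**Figure D3:**
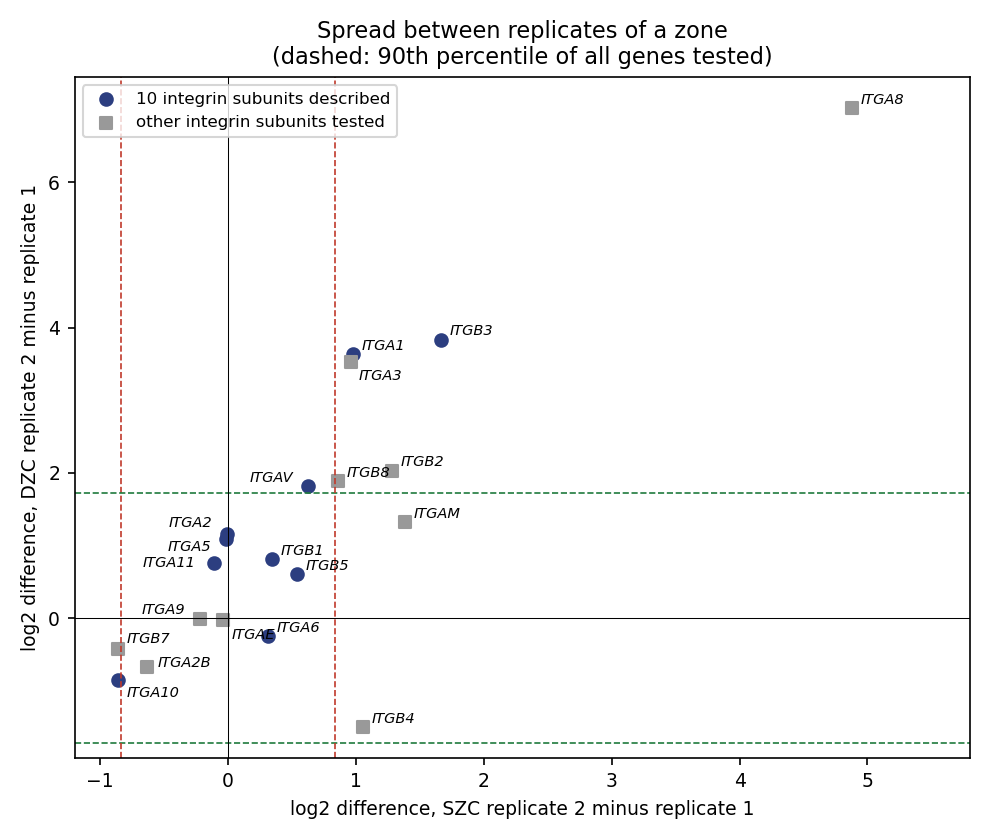
Log2 difference between replicate 2 and replicate 1 in SZCs (x axis) and in DZCs (y axis) for the 10 integrin genes (blue circles) and 10 other tested integrin subunits (grey squares), computed after adding 0.5 counts, with dashed lines at the 90th percentile of the absolute difference over all genes tested. *ITGB3* and *ITGA1* lie above the DZC line and beyond the SZC line, and *ITGAV* just above the DZC line. *ITGA8*, at the top right, had 0 counts in replicate 1 of both zones.

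Leaving out a DZC library changed which integrins were called. Without DZC replicate 2, 5 of the 10 passed, all higher in SZCs: *ITGA1*, *ITGA2*, *ITGA11*, *ITGA5* and *ITGAV*, while 20.7% of all genes passed. Without DZC replicate 1, 4 passed, with *ITGA2* and *ITGA10* higher in SZCs and *ITGA1* and *ITGB3* higher in DZCs, against 6.67% of all genes. These fits take the spread from the SZC pair alone and assume that the lone DZC library varies as they do. *ITGA1* was called in opposite directions, at 2.17 without DZC replicate 2 and -1.48 without DZC replicate 1. Without either SZC library 0 of the 10 passed (0.436% and 1.13% of all genes), and *ITGA2* then had an FDR of 1 without SZC replicate 1 and 0.749 without SZC replicate 2 in edgeR's exact test. The log2 fold change kept its sign whichever library was left out in 4 genes, which were *ITGA2*, *ITGA10*, *ITGA11* and *ITGA6*.

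**Figure D4:**
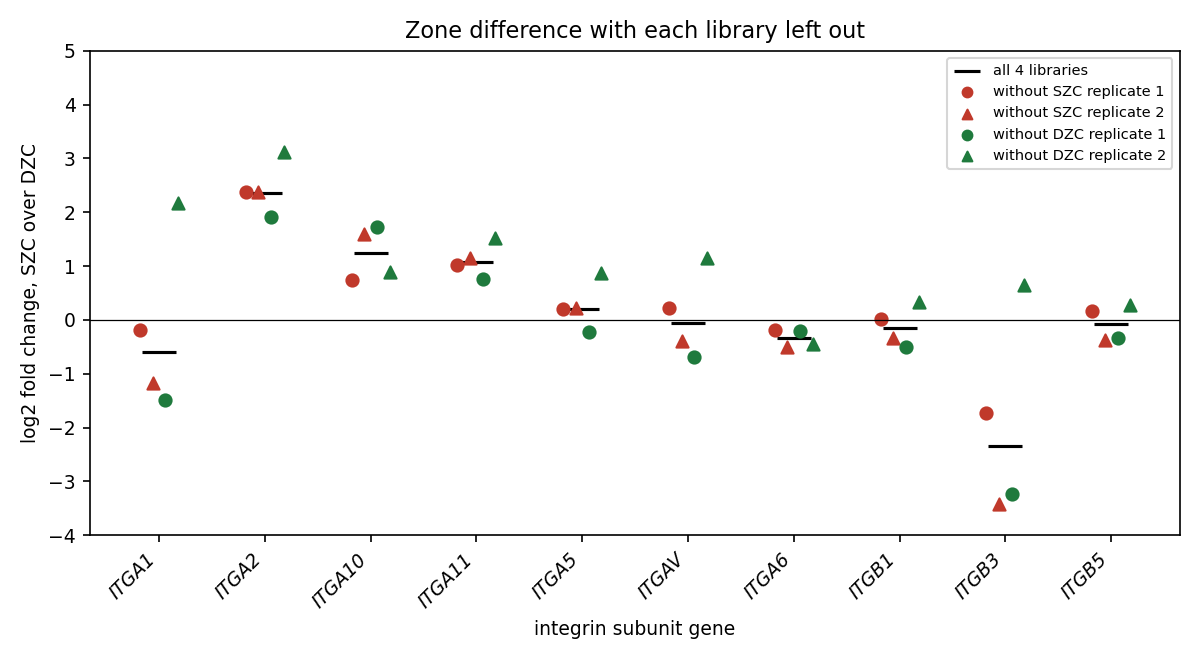
Log2 fold change of SZCs over DZCs for the 10 integrin genes with all 4 libraries (black bars) and with each library left out (red for an SZC library, green for a DZC library, circles for replicate 1, triangles for replicate 2). *ITGA1*, *ITGAV*, *ITGB1*, *ITGB3* and *ITGB5* cross 0 when DZC replicate 2 is left out, and *ITGA2*, *ITGA10* and *ITGA11* stay above 0 in every case. *ITGA5* falls below 0 without DZC replicate 1, and 7 of the 10 lie above 0 without SZC replicate 1, against 4 with all libraries.

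A list of 16 other integrin subunits, the rest of the family, was set beside the 10. Of these 15 were found in the table and 10 were tested. *ITGA9*, whose product binds tenascin, osteopontin and the adhesion molecule of *VCAM1*, was the only one called, again 1 of 10 where 2.93% of all genes were. SZC counts were 864 and 782 and DZC counts 81 and 112, or 39.3 and 33.7 CPM against 5.04 and 5.02 CPM. The zones were far apart beside the spread within either. The difference was 7.24-fold, or 2.86 in log2 (SE 0.37, 95% interval 2.12 to 3.59), at FDR 4.53e-10 in the exact test of edgeR, and it passed with each library left out. *ITGB7*, a β chain of lymphocytes, was at 15.4 and 8.44 CPM in SZCs and at 6.41 and 4.75 CPM in DZCs (log2 fold change 1.09, FDR 0.513 by edgeR's exact test). *ITGAE*, its partner in lymphocytes, was at 10.9 and 10.6 CPM in SZCs and 14.7 and 14.4 CPM in DZCs (log2 fold change -0.43, FDR 0.948 by edgeR's exact test).

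The other 7 tested subunits overlapped between the zones, so 3 of 10 did not, against 41.5% of all genes. *ITGA3*, *ITGB8* and *ITGA8* had log2 fold changes of -0.83, -0.54 and -2.62, and in each DZC replicate 2 was the highest library. The leukocyte chains *ITGB2* and *ITGAM* were at no more than 2.24 CPM in any library, and *ITGA2B* and *ITGB4* at no more than 1.87 CPM. *ITGA4*, *ITGA7*, *ITGAD*, *ITGAL* and *ITGB6* were too low to test. The median log2 fold change of the 10 tested was 0.08.

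Of 38 genes for integrin activation and the adhesion plaque, the protein assembly that joins the β tail to actin, 35 were tested and 1 was called, a share near the 2.93% of all genes, with a median log2 fold change of -0.01. This was *TNS1*, which encodes tensin, a protein binding both β tails and actin. It was at 199 and 163 CPM in SZCs and at 25.3 and 49.0 CPM in DZCs. Both SZC libraries were above both DZC libraries, by 2.28 on the log2 scale (SE 0.44), at FDR 0.000128 in edgeR's exact test. Without SZC replicate 1 that FDR was 0.121.

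Unadjusted p-values were below 0.05 for 5 of the 35, against 9.09% of all genes. Besides *TNS1* these were the adaptor *DAB2* (1.21) and the tetraspanin *CD81* (1.08), with positive log2 fold changes, and a further talin, *TLN2*, and *LIMS2*, a partner of ILK, both at -0.83. Their FDRs lay between 0.157 and 0.435 in edgeR's exact test, and they were named after their values were seen. Of the genes named by rule, talin, which switches integrins on, had a log2 fold change of 0.21 for *TLN1* (95% interval -0.61 to 1.03), and the kindlin gene *FERMT2* one of -0.25 (-0.99 to 0.48). *ILK*, the pseudokinase that binds the β tail, was at -0.06 (-0.77 to 0.66). Focal adhesion kinase, *PTK2*, was at 0.42 (-0.23 to 1.07), vinculin, *VCL*, at 0.36 (-0.82 to 1.53) and *ITGB1BP1*, which holds β chains inactive, at -0.24 (-0.94 to 0.46). None of these 6 passed, and intervals this wide do not show that the zones were alike.

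**Figure D5:**
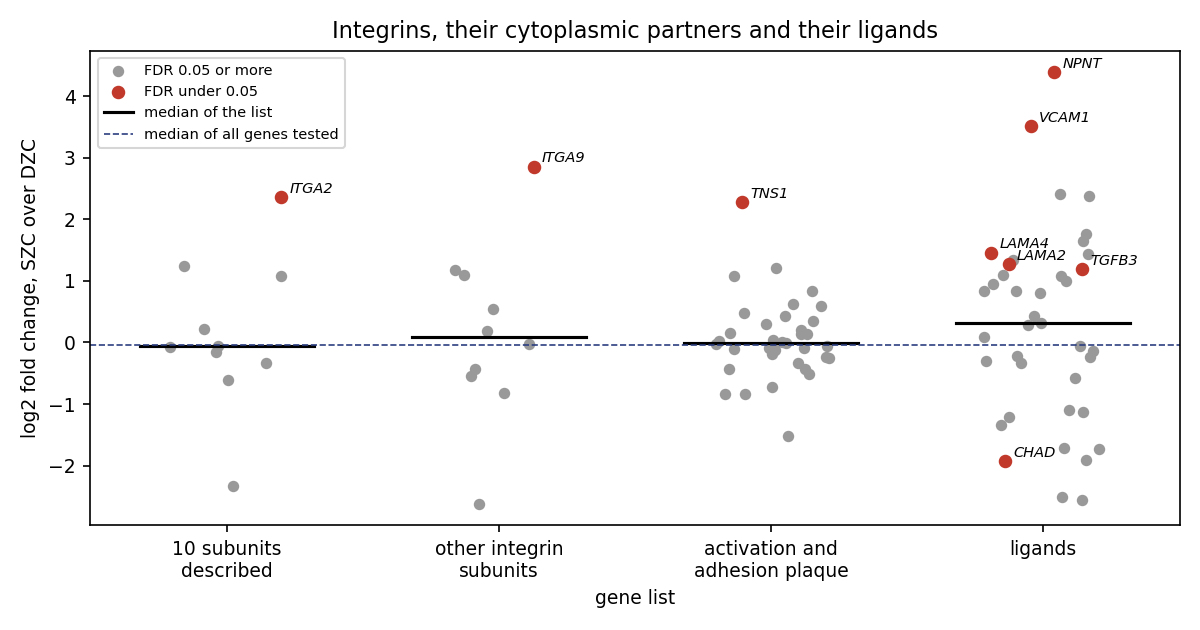
Log2 fold change of SZCs over DZCs (y axis) for the tested genes of 4 lists: the 10 integrin genes, 10 other subunits, 35 genes of activation and the adhesion plaque and 39 ligands. Red points had an FDR under 0.05 in edgeR's exact test, black bars are list medians (-0.06, 0.08, -0.01 and 0.31) and the dashed line is the median of all genes tested, -0.04. Calls number 1 in each of the first 3 lists and 6 among the ligands.

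Of 42 ligand genes 39 were tested. Called were 6, with 5 higher in SZCs and 1 higher in DZCs, where 2.23% and 0.7% of all genes were, and the median log2 fold change was 0.31. The split changed with the method, to 7 and 4 in DESeq2, 4 and 0 with library totals and 4 and 2 with the replicate block. *NPNT*, nephronectin, a ligand of the chain of *ITGA8*, was at 47.2 and 22.7 CPM in SZCs and at 0.684 and 2.60 CPM in DZCs (log2 difference 4.39, SE 0.69, FDR 7.22e-06 by edgeR's exact test). *VCAM1*, a ligand of the product of *ITGA9*, was at 454 and 248 CPM against 18.9 and 42.6 CPM (log2 difference 3.51, SE 0.54, FDR 1.80e-06 by edgeR's exact test). Both passed with each library left out, with log2 differences from 3.75 to 5.68 for *NPNT* and from 3.01 to 4.23 for *VCAM1*, highest without DZC replicate 2, while *ITGA8* itself had 0 and 15 SZC counts and 0 and 90 DZC counts.

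The laminin chains *LAMA4* and *LAMA2* had log2 fold changes of 1.46 and 1.28 (FDR 0.0183 and 0.0347 by edgeR's exact test). *LAMA4* was not called with the replicate number as a block (FDR 0.0976, edgeR), nor *LAMA2* with library totals (FDR 0.0985, edgeR). *TGFB3*, whose latent form is bound by αV integrins, had one of 1.20 (FDR 0.0355 by the same edgeR test), but was not called with that block (FDR 0.0656) or without a filter (FDR 0.0531). All 3 lost their call without either SZC library, at FDRs from 0.380 to 1 in edgeR's exact test. *CHAD*, chondroadherin, a cartilage protein bound by the collagen receptor of *ITGA2*, was the one called higher in DZCs. It was at 37.5 and 110.4 CPM in SZCs and at 292 and 269 CPM in DZCs (log2 fold change -1.92, SE 0.56, FDR 0.0373 by edgeR's exact test). *CHAD* was no longer called without SZC replicate 1 (FDR 1 by the same test of edgeR) or with library totals (log2 fold change -1.60, FDR 0.247), a scaling under which *ITGA2* was not called either.

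Collagen II, the product of *COL2A1*, was at 64981 and 55516 CPM in SZCs and 333205 and 118929 CPM in DZCs, and missed the threshold at FDR 0.0658 in edgeR's exact test. It passed in DESeq2 (FDR 0.0100) but in none of the other 6 alternatives on all 4 libraries, where FDRs ran up to 0.720 (edgeR). With a library left out its log2 fold change lay between -2.45 and -0.98, and it passed only without DZC replicate 2. *COL1A1* had a log2 fold change of 0.95 (95% interval -0.68 to 2.58) and *COL6A1* one of 0.83 (-0.02 to 1.68). Fibronectin, *FN1*, was at 1731 and 3163 CPM in SZCs and 2014 and 9353 CPM in DZCs, and thrombospondin, *THBS1*, at 1471 and 5603 CPM against 2829 and 20621 CPM. In both, DZC replicate 2 was the highest library, as for *ITGB3*, *ITGA1*, *ITGAV*, *ITGA5*, *ITGB1* and *ITGB5*. Of the 39 ligands tested, 31 were higher in DZC replicate 2 than in replicate 1, against 50.9% of all genes tested. *TNC*, tenascin, was at 3998 and 5075 CPM in SZCs and at 135 and 1568 CPM in DZCs (log2 fold change 2.41, FDR 0.354 by edgeR's exact test). Its value rested on the DZC libraries, at 1.54 without DZC replicate 1 and 5.09 without DZC replicate 2, and it passed in both (FDR 0.00325 and 1.97e-25 in edgeR). *SPP1*, osteopontin, was at 108 and 102 CPM against 18.9 and 201 CPM, and *COMP* had a log2 fold change of -1.34 (95% interval -2.53 to -0.16, FDR 0.412 by edgeR's exact test). *VTN*, vitronectin, had 0 counts in all 4 libraries, which is under the floor of 3 counts.

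Among all named genes tested, the profile of *ITGA2* over the 4 libraries was most like those of *PLCG2*, *COLEC12* and *COL14A1*, with root mean square distances of 0.089, 0.108 and 0.109 in centred log2 CPM. That of *ITGB3* was most like those of *NRN1*, *EMX2* and *LAMA5*, at 0.193, 0.196 and 0.206. With 4 libraries such likeness is a description, and 33 genes lay within 0.25 of *ITGA2* and 3 within 0.25 of *ITGB3*.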

How the data were processed

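The authors aligned 75-base single-end reads with STAR 2.5.2b to the cow genome (Ensembl UMD 3.1). The deposited counts per gene are raw and unstranded. A second deposited table, with log2 fold changes and FDR values of the authors' own comparison, served only to fill blank gene names. The ATAC-Seq libraries were not analysed here. Counts were scaled by TMM, filtered by edgeR's default and compared by the exact test of edgeR 4.0.16 (R 4.3.3) with gene-wise dispersions and Benjamini–Hochberg adjustment over 12857 genes. SEs are those of a negative binomial model. Log2 ratios and centred levels had 0.5 counts added. Scripts were tested on simulated data. Replicates of a zone differed beyond sampling noise (chi-square per degree of freedom 61.9 for SZCs and 303 for DZCs). Where replicates share an animal or a preparation, p-values measure that spread alone. Alternatives were the quasi-likelihood test with and without the replicate number, DESeq2 1.42.0, its size factors in edgeR, library totals, no filter, a minimum of 1 CPM (exceeded by 2 or more libraries), each library left out and, for ratios, 1 count added.

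Named were the 10 members, every other subunit tested, up to 6 called genes of each other list, 16 further genes, and the 3 genes nearest in profile to the member with the lowest FDR in each direction. The members and lists were chosen with earlier results of these data known.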

Additional observations from a re-analysis of the deposited data

How the results depend on the processing

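The quasi-likelihood test of edgeR without a block called 0 of the 10 integrins, 0 other subunits, 0 plaque genes, 0 ligands and 0 of all genes, with 3, 2, 5, 9 and 1126 at an unadjusted p-value below 0.05. The cause was not tested. DESeq2 called 11 ligands, against 6, and scaling by library totals called 2 plaque genes, against 1. Totals moved the median log2 fold change of all genes by 0.30 and turned the sign of *ITGAV* (0.11), *ITGB1* (0.082), *ITGB5* (0.18), *ITGA2B* (0.34), *FERMT2* (0.0055), *ITGB1BP1* (0.10), *ILK* (0.29) and *SPP1* (0.03), none of them called, and the call among the 10 passed from *ITGA2* to *ITGA10*. Of all calls 86.7% were then higher in SZCs, against 76.1%. *ITGA2* was called under 4 of 7 alternatives on all libraries (FDR 0.0294 to 0.299) and *ITGA9* under 6 (FDR up to 0.0784), by edgeR or DESeq2.

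The sources used here do not tie same-numbered libraries to 1 animal or joint. Their deviations from the zone means had a correlation of 0.43 across 12857 genes. The quasi-likelihood test with the replicate block called 347 genes and 1 of the 10, *ITGA10* (log2 fold change 1.24, FDR 0.0490), while *ITGA2* was at FDR 0.0584 in that edgeR fit. With the block the log2 fold change was 0.17 for *ITGA1*, 0.18 for *ITGAV* and 0.75 for *SPP1*, each with its sign turned.

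With each library left out, calls ranged from 0 to 5 of the 10, 1 to 3 other subunits, 0 to 7 plaque genes, 2 to 27 ligands and 58 to 2725 of all genes. Log2 fold changes that turned ranged from -1.48 to 2.17 for *ITGA1*, -0.23 to 0.87 for *ITGA5*, -0.69 to 1.14 for *ITGAV*, -0.49 to 0.33 for *ITGB1*, -3.41 to 0.65 for *ITGB3* and -0.36 to 0.28 for *ITGB5*. Outside the 10 they ranged from -0.38 to 0.36 for *ITGA2B*, -1.70 to 1.86 for *ITGA3*, -8.35 to 5.77 for *ITGA8*, -0.31 to 1.43 for *ITGAM*, -0.46 to 1.12 for *ITGB4*, -1.19 to 0.72 for *ITGB8*, -0.13 to 0.67 for *TLN1*, -0.47 to 0.021 for *FERMT2*, -0.26 to 0.20 for *ILK*, -0.22 to 1.36 for *VCL*, -1.93 to 0.30 for *FN1*, -0.93 to 2.49 for *SPP1* and -2.99 to 0.34 for *THBS1*. The difference in log2 ratio ranged from -0.70 to 0.91 for *ITGA10* to *ITGA11*, -3.23 to 1.25 for *ITGA1* to *ITGA10*, -0.23 to 0.50 for *ITGA5* to *ITGAV*, -3.09 to 0.14 for *ITGB3* to *ITGB5* and -0.36 to 0.85 for *ITGAV* to *ITGB5*. It stayed above 0 for *ITGA2* to *ITGA1* (0.99 to 3.46) and *ITGA5* to *ITGB1* (0.24 to 0.60). Depth does not limit the abundant chains, but *ITGA2* and *ITGB3* rest on as few as 9 and 17 counts in a library.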
